A study of Mus musculus with 6 samples.

Results

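The enzymes described here keep reactive oxygen in check and use or make glutathione. They were chosen by gene name on the array: the glutathione transferases (Gst), peroxiredoxins (Prdx), glutathione peroxidases (Gpx), superoxide dismutases (Sod) and thioredoxin-related genes (Txn), with Cat, Gclc, Gclm, Gss, Gsr, Nqo1, Hmox1, Hmox2, Nfe2l2 and Keap1. The genes were proposed with earlier results of these data known, though the rule itself used no measured value. It took 96 of 55681 probes, which carry 68 gene names. Of these, 67 were measured, among 32084 genes tested in all, and 61 were well above background on each of the 6 arrays. The remaining gene, Gpx5, a glutathione peroxidase of the epididymis, was too dim on these arrays to be tested.

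Satellite cells, which renew and repair skeletal muscle, came from 3 adult samples (6 months of age) and 3 young samples (3, 2 and 3 months for replicates 1, 2 and 3). The mice were male C57BL/6. Sorting kept cells positive for integrin alpha7 and CD34 and discarded those with CD31, CD45, CD11b or Sca1, so the cells were selected by surface proteins and not by a lineage label. The RNA was amplified by a method meant for very small cell numbers before labelling. The labels call the samples biological replicates without giving the number of mice behind each, so p-values measure only the spread between these samples.

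Superoxide dismutases turn superoxide into hydrogen peroxide, which catalase, peroxiredoxins and glutathione peroxidases then remove. Peroxiredoxins are returned to their reduced state mostly by thioredoxin, and glutathione peroxidases by glutathione. Both of these donors are in turn reduced with electrons from NADPH. Glutathione transferases join glutathione to reactive molecules. The transcription factor Nrf2 (gene Nfe2l2), held down by Keap1, switches on many of these genes through a short DNA motif called the antioxidant response element. In resting satellite cells, low levels of reactive oxygen are linked to the keeping of the stem cell state.

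Values below are relative log2 signals: log2 of an array's processed signal minus that array's own 75th percentile, so 0 is the level of a fairly bright probe. A difference is adult minus young in log2 units with its standard error (SE). A gene was called when its limma p, adjusted over all 32084 genes, was at most 0.05.

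More redox genes were lower than higher in adult cells, and the 3 that rose were thioredoxin genes known mainly from sperm and cilia. Of the 67 measured genes 13 fell and 3 rose in adult, and 51 did not pass. Over all genes tested 28.5% passed, 8.45% lower and 20.1% higher, so with this scaling the redox genes split the other way from the array as a whole. The 13 were Prdx1, Prdx2, Prdx6, Gpx1, Txn1, Txndc5, Txndc9, Txndc12, Txndc15, Txndc17, Gsto1, Gstp2 and Hmox1, and the 3 were Txndc2, Txndc6 and Txndc8. An unadjusted p under 0.05 was found for 35 of the 67, and for 15443 of all 32084 genes. Txndc2 was well above background on adult arrays only, so the filter kept it through the group where it was high. A separate fit, with its own p adjustment, took only probes well above background on all 6 arrays and measured 61 redox genes. Of these 21 were lower and 1, Txndc8, was higher, against 3585 lower and 5353 higher over all genes of that fit.

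The median difference was -0.52 over the 67 genes, against 0.31 over all genes tested and -0.02 over 17718 protein-coding genes of the RefSeq table. Relative to all genes, the median of the redox genes was thus -0.82. Differences were negative for 49 of them and positive for 18. Adult and young arrays did not overlap in 56.7% of the 67 genes, close to the 55.6% of all genes. Of the non-overlapping genes 32 were lower and 6 higher in adult, whereas over all genes 21.6% were lower and 34% higher without overlap.

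How bright a gene was went along with its difference. Among the 8021 dimmest genes on the array the median difference was 1.44 and 0.785% were lower. Among the 8021 brightest it was -0.31, with 18.9% lower and 10.3% higher. The brightest genes as a whole thus also fell more often than they rose. Among those brightest genes stood 27 redox genes, with a median of -0.64, 8 lower (29.6%) and 0 higher. The next 8021 held 17, with a median of -0.65, 5 lower (29.4%) and 0 higher. All genes there had a median of -0.05, with 10.6% lower and 14.8% higher. Among the dimmest stood 10, with a median of 0.85 and 2 higher (20%), below the 1.44 and 32.0% higher of all genes there. All 13 lower genes were thus among the 2 brighter level groups. The 25th percentile of the processed signal was 44.6 to 51.1 on adult arrays and 18.9 to 31.8 on young arrays, and the part of this shift of dim signals in the differences of dim genes was not tested.

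**Figure D1:**
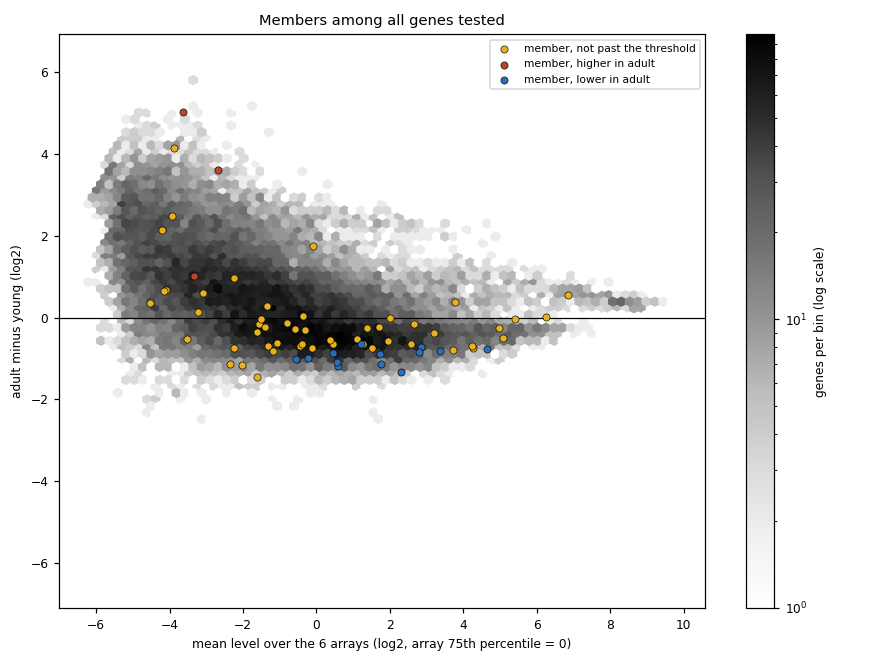
Difference between adult and young (log2, y axis) against the mean level over the 6 arrays (log2, array 75th percentile = 0, x axis); grey bins are all genes tested, coloured points the 67 redox genes. The 13 lower genes lie at mean levels above -1, while Txndc2, Txndc6 and Txndc8 lie to the left among the dim genes.

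Fewer redox genes were called with any 1 array left out. Over all genes 295 to 7691 then passed, against 9144 with all arrays. The 16 called redox genes kept their direction in each of these fits, which was fixed in advance, as their groups do not overlap. Each fit held fewer samples, and the part of single arrays in the loss of calls was not tested. Without adult replicate 1, 2 or 3 the number of redox genes called was 0, 1 and 0, and without young replicate 1, 2 or 3 it was 3, 10 and 1. With adult replicate 1 or 3 left out, where limma called 0, an unadjusted p under 0.05 was found for 29 and 26 redox genes. Over all genes it was found for 13251 and 11846. In the 4 fits with any call the lower redox genes no longer outnumbered the higher ones. Without adult replicate 2 there were 1 higher and 0 lower (627 and 133 over all genes). Without young replicate 1 there were 2 higher and 1 lower (1223 and 135 over all genes). Without young replicate 2 there were 6 higher and 4 lower (6429 and 1262 over all genes). Without young replicate 3 there were 1 higher and 0 lower (2071 and 310 over all genes). With 1 array left out, the median of the redox genes ran from -0.53 to -0.38. Txndc2 passed in 4 of the 6 fits, Prdx2 and Txndc6 in 2, and Txn1, Txndc12 and Txndc15 in 1. The 6 arrays stood on 1 slide, in 2 rows by the numbers in their labels. With the row as a block 5 redox genes passed, Prdx2, Txndc12, Txndc15, Txndc2 and Txndc6. Row 1, with 1 adult and 2 young arrays, had a median difference of -0.42 over the redox genes, and row 2, with 2 adult and 1 young, -0.59. The scaling also mattered. Scaled on each array's median, 36 redox genes were lower and 2 higher, while over all genes 8813 were lower and 3451 higher, with a median of -0.24 over all genes. That scaling moved all genes nearly alike, by a median of -0.54, so the sign of genes near 0 turned with it. With quantile normalization 8 were lower and 2 higher, while over all genes 2781 were lower and 2876 higher. Scaling by 1 value per array cannot change the median of the redox genes relative to that of all genes, -0.82. It was -0.49 with quantile normalization, -0.46 with cyclic loess and -0.39 with the series matrix values.

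Markers of other cells were read on the same arrays, where 8.45% of all genes were lower and 20.1% higher. Of 10 satellite cell markers all were well above background on all 6 arrays, with Pax7 at 3.66, 3.51 and 3.05 on the adult arrays and 3.89, 3.44 and 3.92 on the young arrays, and 4 of the 10 were lower (summed linear signal 101.7 to 135.9 in adult, 136.5 to 150.9 in young). The summed linear signal of 5 measured fibro-adipogenic markers was 27.8 to 42.6 in adult and 73.1 to 79.8 in young, with 1 of 5 lower, and that of 8 myofibre markers was 17.4 to 22.7 in adult and 32.0 to 48.1 in young, with 3 lower and 1 higher. Of 7 mural cell markers 4 were higher and 1 was lower (sums 15.9 to 23.7 in adult, 15.5 to 21.1 in young). The sums hide large shifts that opposed each other, as Kcnj8 was 11.98-fold, Abcc9 5.17-fold, Pdgfrb 4.38-fold and Rgs5 3.65-fold higher in adult, and Acta2, with 1.60 in adult and 3.70 in young, was 4.30-fold lower. Of 9 leukocyte markers 3 were higher and 0 lower (378.1 to 402.3 in adult, 219.4 to 425.1 in young). Nearly all of that sum came from Itgam, the gene of CD11b, although cells with CD11b were discarded in the sort. Itgam had 8.61, 8.51 and 8.58 in adult and 8.70, 7.72 and 8.12 in young and did not pass. The next brightest, Csf1r, had means of 3.37 in adult and 3.01 in young. Ptprc, the gene of CD45, had means of -2.21 in adult and -2.70 in young. What the Itgam probe read was not tested, and the leukocyte sum rests on it. Tyrobp, a signalling adaptor of myeloid cells, was not well above background on any young array. Of 7 endothelial markers 1 was higher and 0 were lower (17.3 to 23.7 in adult, 17.7 to 26.9 in young). Sums for 6 erythroid markers were 44.8 to 72.7 in adult and 1.46 to 68.2 in young, with 0 called by limma and 3 at an unadjusted p under 0.05. In sorted bulk samples, fewer cells of a type and less RNA per cell cannot be told apart, and the part of these markers in the results below was not tested.

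**Figure D2:**
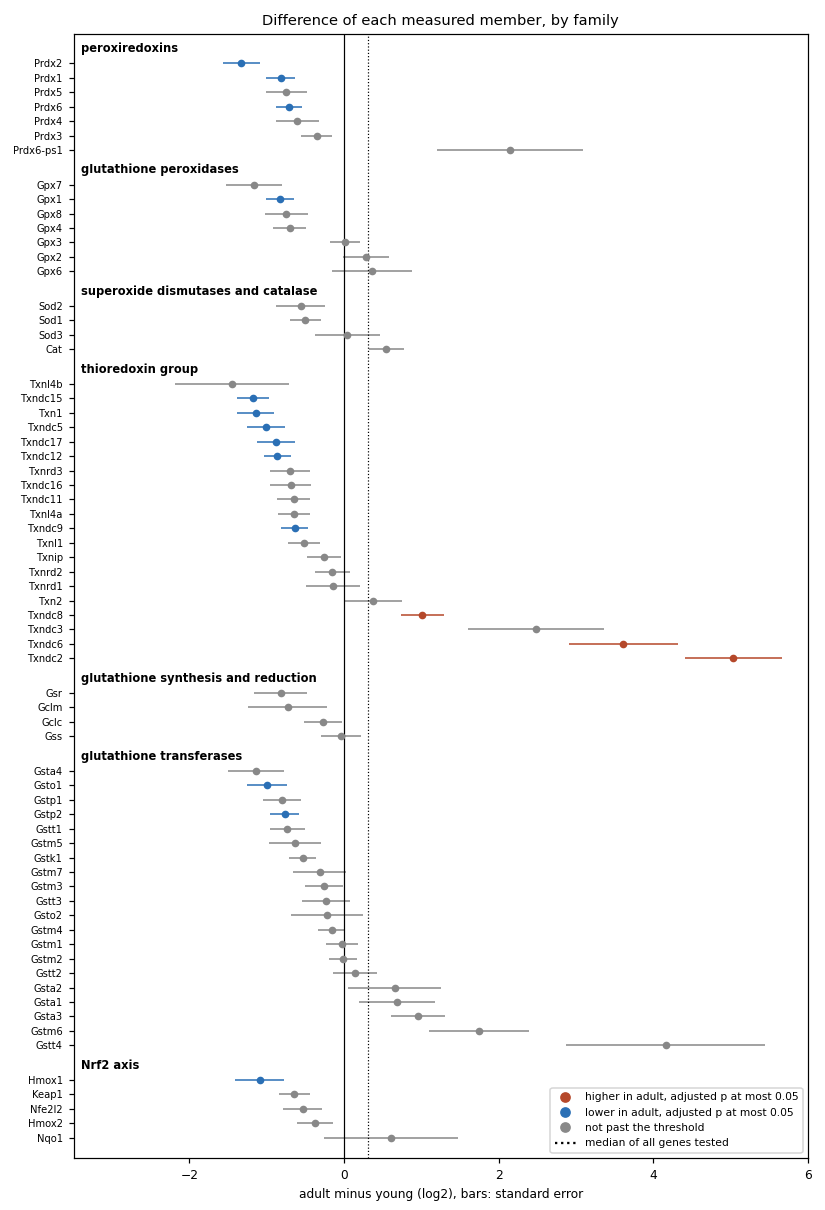
Difference between adult and young (log2, x axis; bars are SE) for each of the 67 measured redox genes, grouped by family; the dotted line is the median of all genes tested, 0.31. Most points lie left of 0, and those farthest right, in the thioredoxin group and the glutathione transferases, are read from dim signals in young.

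Peroxiredoxins are abundant proteins that remove peroxides with a reactive cysteine. Of 7 measured genes 3 were lower (42.9%, against 8.45% of all genes), 0 were higher and 4 did not pass, with a median of -0.71. On 6 of the 7 genes the adult arrays lay wholly below the young ones, as they did for 21.6% of all genes.

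Prdx2, a cytosolic peroxiredoxin abundant in red blood cells, had relative log2 signals of 1.65, 1.88 and 1.37 on the adult arrays and 2.65, 3.16 and 3.07 on the young arrays. Every adult array was below every young one. It was 2.51-fold lower in adult (difference -1.33 ± 0.24 SE, limma adjusted p = 0.023; probe at chr8:87498153-87498212, mm9). The 6 measured erythroid markers had differences from 0.62 to 3.14, and their part in the Prdx2 result was not tested.

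Prdx1, another cytosolic peroxiredoxin, had 3.14, 3.01 and 2.74 in adult and 3.87, 3.71 and 3.77 in young. The groups did not overlap, and it was 1.76-fold lower in adult (-0.82 ± 0.19 SE, limma adjusted p = 0.032; chr4:116371818-116371877, mm9). A second probe, at chr4:116372422-116372481, gave a different picture, with -1.24, -1.34 and -1.52 in adult and -2.14, -1.27 and -1.05 in young. Those values overlapped and differed by 0.12 ± 0.32 SE.

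Prdx6, the peroxiredoxin that works with glutathione in place of thioredoxin, had 2.48, 2.63 and 2.35 in adult and 3.15, 3.24 and 3.22 in young. The groups stood apart, by -0.71 ± 0.17 SE or 1.64-fold (limma adjusted p = 0.035; chr1:163171138-163171197, mm9). Its other 2 tested probes differed by -0.80 ± 0.21 and -0.35 ± 0.28 SE, both in the same direction.

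The other peroxiredoxins did not pass. Prdx5, found in mitochondria, peroxisomes and the cytosol, had 3.86, 4.25 and 3.54 in adult and 4.34, 4.63 and 4.91 in young, without overlap (-0.75 ± 0.26 SE, limma adjusted p = 0.076). Prdx4 of the endoplasmic reticulum differed by -0.61 ± 0.28 SE and the mitochondrial Prdx3 by -0.36 ± 0.20 SE. For Prdx3 the array holds 10 spots of the probe, and the SD between those spots on 1 array was 0.073 to 0.134 (log2). Prdx6-ps1, a Prdx6 copy now named Prdx6b, was dim, at -4.77, -2.34 and -2.27 in adult and -6.84, -4.32 and -4.67 in young, with overlapping groups (2.15 ± 0.94 SE, limma adjusted p = 0.12) and well above background on 2 arrays of each group.

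Among the glutathione peroxidases Gpx1 alone passed. Of 7 measured genes 1 was lower (14.3%, against 8.45% of all genes), 0 were higher and 6 did not pass, with a median of -0.71. The 4 genes whose adult arrays all lay below the young ones, as in 21.6% of all genes, were Gpx1, Gpx4, Gpx7 and Gpx8.

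Gpx1, the selenium enzyme of cytosol and mitochondria, had 2.54, 2.37 and 2.20 in adult and 3.17, 3.29 and 3.14 in young. It was 1.78-fold lower in adult (-0.83 ± 0.18 SE, limma adjusted p = 0.029; chr9:108242276-108242335, mm9). Gpx4, which reduces lipid peroxides in membranes and guards against ferroptosis, had 3.84, 4.05 and 3.73 in adult and 4.84, 4.36 and 4.54 in young. Its groups did not overlap, and it lay just outside the threshold (-0.71 ± 0.21 SE, limma adjusted p = 0.051).

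Gpx7 and Gpx8 sit in the endoplasmic reticulum. Gpx7 had -2.93, -3.01 and -1.89 in adult and -1.14, -1.69 and -1.51 in young (-1.16 ± 0.36 SE, limma adjusted p = 0.055), and Gpx8 differed by -0.75 ± 0.28 SE (limma adjusted p = 0.087).

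Gpx3, the secreted peroxidase of plasma, had 6.40, 6.29 and 6.08 in adult and 6.44, 6.19 and 6.12 in young. The groups overlapped fully, and the difference was 0.01 ± 0.19 SE, about the same error as that of Gpx1. With array medians it stood at -0.53, by the shift that all genes had there, and with quantile normalization at -0.05. Gpx2, an enzyme of the gut, differed by 0.29 ± 0.30 SE and Gpx6 of the olfactory lining by 0.36 ± 0.52 SE. The sign of both turned with the common shift of array medians (-0.25 and -0.18), quantile normalization (-0.03 and -1.06) and the series matrix values (-0.03 and -0.22), and that of Gpx6 also with cyclic loess (-0.85).

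None of the 3 superoxide dismutases and catalase passed by the probe used for each gene, while 1 had an unadjusted p under 0.05, and the median of the 4 was -0.23. Without adult replicate 3 that median was 0.05. Sod1, the copper and zinc enzyme of the cytosol, had 4.92, 5.03 and 4.52 in adult and 5.27, 5.31 and 5.38 in young. The groups did not overlap and differed by -0.50 ± 0.20 SE (limma adjusted p = 0.103). The mitochondrial manganese enzyme Sod2 had 1.96, 1.71 and 1.34 in adult and 1.78, 2.13 and 2.78 in young, with overlap (-0.56 ± 0.32 SE, limma adjusted p = 0.205). The extracellular Sod3 overlapped fully (0.04 ± 0.42 SE), and its sign turned with the common shift of array medians (-0.50) and with quantile normalization (-0.07).

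Catalase, the peroxide-splitting enzyme of peroxisomes, had 2 probes that went opposite ways. The probe used for the gene, the brighter one, lies at chr2:103294487-103294546 (mm9, minus strand), and its values were 7.29, 6.95 and 7.10 in adult and 6.80, 6.66 and 6.23 in young. That was higher on each adult array, by 0.55 ± 0.23 SE (limma adjusted p = 0.106). The second probe spans chr2:103297086-103300428, more than its own 60 bases, so it crosses at least 1 intron. It read 0.06, 0.07 and -0.39 in adult and 1.41, 0.91 and 1.12 in young, lower on each adult array by -1.23 ± 0.24 SE (limma p adjusted over all 48414 probes = 0.028). Over all those probes 23.5% passed. The letters of the probes are shown because the brighter one carries a run of CA repeats, in capitals below, within bases 25 to 54 of its 60. The second probe is given whole.
Cat, brighter probe, part: cacacatacCACACACACACACACAtgcaa
Cat, second probe: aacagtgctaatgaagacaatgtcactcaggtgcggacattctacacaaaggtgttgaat
Probes with at least 7 CA or TG repeats numbered 136 among those tested. They were bright as a class, with a median level of 7.96 over the 6 arrays, against -1.65 over all probes tested. Their median difference was 0.42, against 0.29 over all probes. The difference was positive in 97.8% of them, against 59.2%, with 0 called by limma. With such probes left out, a setting chosen after seeing the data, Cat was read from its second probe (-1.23, limma adjusted p = 0.025 over genes; adjusted p from 0.025 to 0.988 over all settings) and the lower redox genes numbered 14. The part of the repeat in the signal of the brighter probe was not tested.

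**Figure D3:**
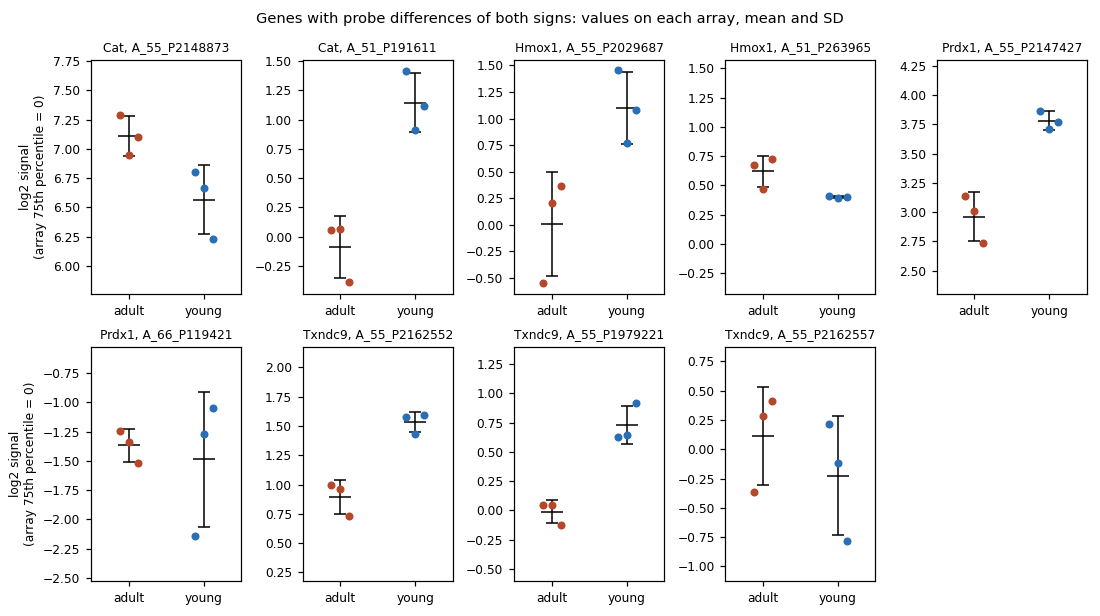
Relative log2 signal on each array (points; log2, array 75th percentile = 0) with mean and SD (bars) for every tested probe of Cat, Hmox1, Prdx1 and Txndc9, the probe used for the gene first. For Cat the first probe is higher and the second lower on each adult array.

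The thioredoxin group held genes at both ends of the range. Of 20 measured genes 6 were lower (30%, against 8.45% of all genes) and 3 were higher (15%, against 20.1%). The other 11 did not pass, and the median was -0.64.

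Txn1, the cytosolic thioredoxin that reduces peroxiredoxins, had 1.40, 1.28 and 0.90 in adult and 2.03, 2.59 and 2.39 in young. Every adult array was below every young one, and it was 2.21-fold lower (-1.14 ± 0.24 SE, limma adjusted p = 0.028; chr4:57956677-57956736, mm9). Its partners did not pass, whether the mitochondrial thioredoxin Txn2 (0.37 ± 0.38 SE), the reductases Txnrd1 (-0.14 ± 0.35 SE), Txnrd2 (-0.15 ± 0.22 SE) and Txnrd3 (-0.70 ± 0.26 SE), or the thioredoxin inhibitor Txnip (-0.26 ± 0.22 SE), all of which are named here after their values were seen.

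Txndc17, a cytosolic relative that reduces cystine, had 1.44, 1.57 and 0.83 in adult and 2.10, 2.18 and 2.21 in young. It was 1.85-fold lower without overlap (-0.89 ± 0.24 SE, limma adjusted p = 0.044; chr11:72023184-72023243, mm9). Txndc9, a cofactor of the chaperonin that folds actin and tubulin, had 0.99, 0.96 and 0.73 in adult and 1.58, 1.43 and 1.59 in young, 1.56-fold lower (-0.64 ± 0.18 SE, limma adjusted p = 0.045; chr1:38044249-38044308, mm9). Of its 3 probes 1 other was also lower (-0.74 ± 0.19 SE, limma p adjusted over probes = 0.042), and the remaining one gave 0.34 ± 0.35 SE with overlapping groups.

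Several members work in the endoplasmic reticulum, where thioredoxin-fold proteins form and sort disulfide bonds. Txndc15 had 0.23, 0.01 and -0.27 in adult and 1.09, 1.29 and 1.12 in young. The gap between the groups was several times their spread, and the gene was 2.26-fold lower (-1.18 ± 0.20 SE, limma adjusted p = 0.022; chr13:55827465-55827524, mm9). Txndc5, a protein disulfide isomerase, had -0.85, -0.90 and -1.46 in adult and -0.16, 0.20 and -0.21 in young, 2.02-fold lower (-1.01 ± 0.25 SE, limma adjusted p = 0.035; chr13:38592680-38592739, mm9). Txndc12, another disulfide-forming enzyme, had 0.10, -0.13 and 0.05 in adult and 0.90, 0.74 and 0.98 in young, 1.82-fold lower (-0.86 ± 0.18 SE, limma adjusted p = 0.027; chr4:108534271-108534330, mm9).

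The 3 genes that rose were dim in young cells. Txndc2 is a thioredoxin of spermatids, and had -0.58, -1.32 and -1.49 in adult and -5.52, -7.55 and -5.43 in young. It was well above background on each adult array and on 0 of 3 young arrays, so its young level is only a bound, and it was at least 17.6-fold higher in adult (limma adjusted p = 0.015, from a fit on young values that are not above background; chr17:65987824-65987883, mm9). The bound is the adult mean over a young mean in which each array counts with its detection limit, or with the probe's signal where that is higher.

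Txndc6, now named Nme9, a protein of cilia and of the sperm tail, had -0.78, -1.36 and -0.52 in adult and -6.01, -3.22 and -4.27 in young (3.61 ± 0.71 SE, limma adjusted p = 0.026; chr9:99369074-99369133, mm9). It was well above background on 2 of the 3 young arrays, which leaves the size uncertain. Txndc8, also of spermatids, had -3.34, -2.64 and -2.48 in adult and -3.64, -3.85 and -4.00 in young, 2.02-fold higher (1.01 ± 0.28 SE, limma adjusted p = 0.044; chr4:57998450-57998509, mm9). With the series matrix values the Txndc8 difference was -0.05.

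Txndc3, the remaining spermatid thioredoxin, now Nme8, had -2.36, -3.60 and -2.16 in adult and -5.94, -3.27 and -6.35 in young and did not pass (2.48 ± 0.88 SE, limma adjusted p = 0.075). Young replicate 2, the sample of 2 months, was inside the adult range there and was the young array nearest to adult for Txndc6, but for Txndc2 it was the lowest. Probes well above background numbered 47554 to 49957 on adult arrays, 45926 on this array and 41528 and 43075 on the other young ones.

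**Figure D4:**
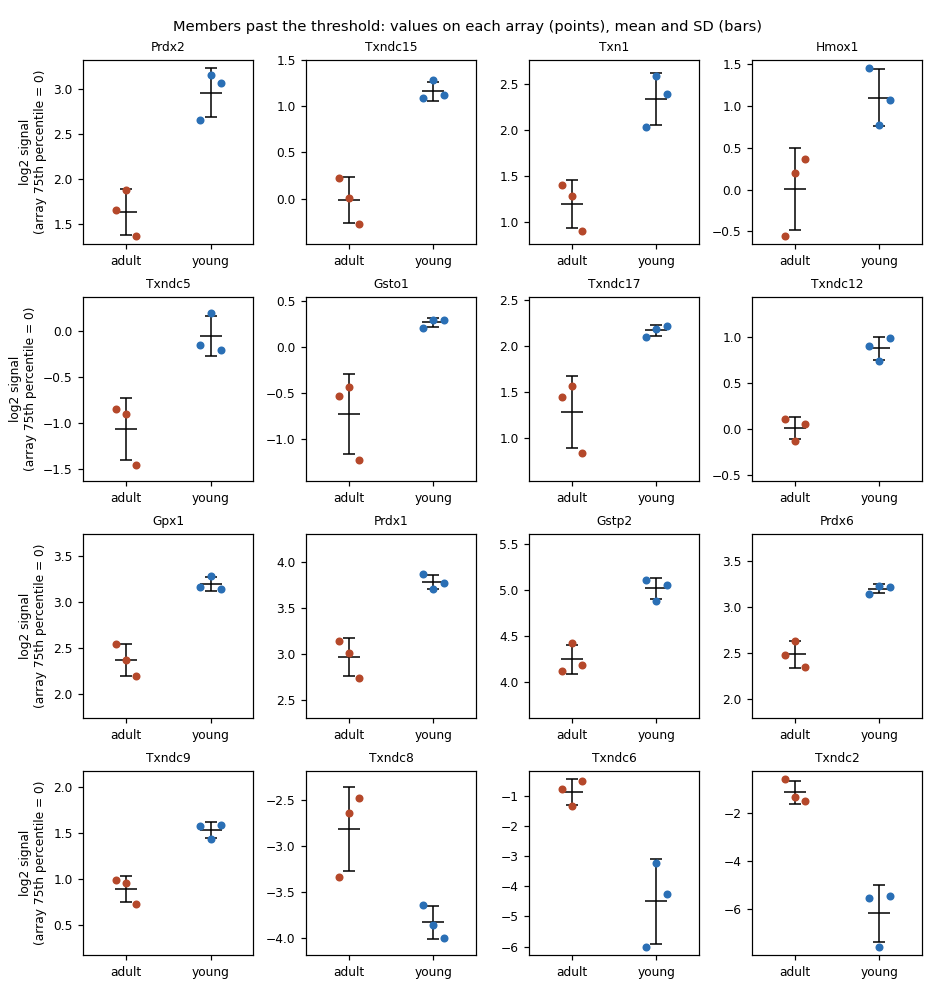
Relative log2 signal on each array (points; y axis in log2, array 75th percentile = 0) with mean and SD (bars) for the 16 redox genes past the threshold, adult left and young right. In each panel the groups do not overlap; the last 3 panels, Txndc8, Txndc6 and Txndc2, are the genes higher in adult.

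Glutathione is made in 2 steps and is returned to its reduced form by Gsr. None of the 4 genes passed, with 0 at an unadjusted p under 0.05, a median of -0.50 and all 4 differences negative. Gclc, the catalytic subunit of the rate-limiting step, had -0.295, -0.870 and -0.995 in adult and -0.59, -0.40 and -0.34 in young, overlapping (-0.28 ± 0.24 SE). Its modifier subunit Gclm differed by -0.73 ± 0.51 SE and the second enzyme, Gss, by -0.04 ± 0.26 SE.

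Gsr, glutathione reductase, had -1.42, -1.10 and -2.28 in adult and -0.53, -0.99 and -0.82 in young, without overlap (-0.82 ± 0.35 SE, limma adjusted p = 0.110). A dimmer Gsr probe gave -1.02 ± 0.28 SE (limma adjusted p = 0.047 over probes). Both probes read lower on all adult arrays.

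Of 20 measured glutathione transferase genes 2 were lower (10%), 0 were higher and 18 did not pass, with a median of -0.23. The lower share was close to the 8.45% of all genes. An unadjusted p under 0.05 was found for 9 of the 20, and for 15443 of all 32084 genes.

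The pi-class enzymes lie side by side on chromosome 19. Gstp2 had 4.12, 4.43 and 4.19 in adult and 5.12, 4.89 and 5.05 in young, 1.71-fold lower (-0.77 ± 0.18 SE, limma adjusted p = 0.034; chr19:4040983-4041042, mm9). Gstp1 had 3.09, 3.73 and 3.101 in adult and 4.28, 3.96 and 4.07 in young, without overlap (-0.80 ± 0.24 SE, limma adjusted p = 0.054). The second probe of each gene was also lower on all adult arrays, by -0.78 ± 0.23 SE for Gstp2 and -0.63 ± 0.23 SE for Gstp1. The 2 genes are close copies of each other. Of 960 pairs of probes for different genes of 1 family, 0 were identical in at least 80% of letters, but whether each probe bound only its own transcript was not tested.

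Gsto1, an omega-class enzyme that reduces dehydroascorbate and protein disulfides with glutathione, had -0.53, -0.44 and -1.23 in adult and 0.21, 0.30 and 0.29 in young. It was 2.00-fold lower (-0.998 ± 0.26 SE, limma adjusted p = 0.039; chr19:47939128-47939187, mm9). The theta-class Gstt1 had 1.39, 1.28 and 0.80 in adult and 1.84, 1.78 and 2.05 in young and did not pass (-0.74 ± 0.23 SE, limma adjusted p = 0.055).

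Mu-class genes form a cluster on chromosome 3, and those below that did not pass and had small differences were named after their values were seen. Gstm1 had 5.62, 5.38 and 5.16 in adult and 5.50, 5.23 and 5.53 in young, a difference of -0.03 ± 0.21 SE, and Gstm2 differed by -0.02 ± 0.18 SE. Gstm6 had -0.10, 1.07 and 1.36 in adult and -1.65, 0.30 and -1.56 in young, overlapping, and did not pass (1.75 ± 0.65 SE, limma adjusted p = 0.085). For Gstm7 the probe used gave -0.31 ± 0.35 SE, while a dimmer probe with 10 spots gave -1.29 ± 0.30 SE (limma p adjusted over probes = 0.035).

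Gstt4, a testis-enriched theta gene, also named after its value was seen, had -2.28, -0.67 and -2.43 in adult and -7.08, -3.05 and -7.72 in young and did not pass (limma adjusted p = 0.055). It was well above background on each adult array and on 1 of 3 young arrays, so no size is given. The alpha-class Gsta4, which clears the lipid peroxidation product 4-hydroxynonenal, differed by -1.14 ± 0.36 SE (limma adjusted p = 0.058).

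Of the 5 genes of the Nrf2 axis 1 was lower (20%, against 8.45% of all genes), 0 were higher and 4 did not pass, with a median of -0.54. Hmox1, the inducible heme oxygenase and a standard Nrf2 target, had -0.55, 0.20 and 0.37 in adult and 1.45, 0.77 and 1.08 in young. It was 2.13-fold lower without overlap (-1.09 ± 0.32 SE, limma adjusted p = 0.0499; chr8:77620797-77620856, mm9). A second Hmox1 probe, at chr8:77624207-77624266, read 0.67, 0.47 and 0.72 in adult and 0.41, 0.39 and 0.40 in young, higher on each adult array by 0.22 ± 0.18 SE. The sign for Hmox1 thus depended on the probe.

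Nfe2l2, which encodes Nrf2, had 0.50, 0.04 and -0.28 in adult and 0.46, 0.75 and 0.66 in young, with overlap (-0.54 ± 0.25 SE, limma adjusted p = 0.139). Its inhibitor Keap1 had 2.20, 2.31 and 2.23 in adult and 3.00, 2.61 and 3.06 in young. Those groups did not overlap, and Keap1 lay just outside the threshold (-0.64 ± 0.20 SE, limma adjusted p = 0.055).

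Nqo1, a quinone reductase and a classic Nrf2 target, ranged widely within both groups, at -2.13, -1.95 and -4.30 in adult and -2.83, -2.52 and -4.86 in young (0.61 ± 0.87 SE). Its sign turned with quantile normalization (-0.35), cyclic loess (-0.19) and the series matrix values (-0.11). The constitutive heme oxygenase Hmox2 differed by -0.38 ± 0.23 SE by the probe used and by -0.91 ± 0.25 SE by a dimmer probe (limma p adjusted over probes = 0.049).

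The core of the antioxidant response element, TGACNNNGC on either strand, was searched in RefSeq promoter windows of 300 bases (250 before and 50 after each gene's start, build GRCm38.p6). A window was found for 57 of the 67 measured genes. The core was in 12 of the 57 (21.05%), against 3781 of 27025 genes in the whole table (13.99%). Of the 12, 2 were lower (Prdx1, Txndc5), 2 were higher (Txndc2, Txndc6) and 8 did not pass. Of the 45 without it 9 fell, 1 rose and 35 did not pass. A match is only a string of letters and was not tested as a binding site.

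The stretches around the core are shown for both lower genes and for Gclm and Txnrd1, known Nrf2 targets that did not pass, with the core in capitals and each sequence on its gene's strand. The full windows lie at chr4:116685349-116685648 (Prdx1, plus), chr13:38527865-38528164 (Txndc5, minus), chr3:122245307-122245606 (Gclm, plus) and chr10:82858956-82859255 (Txnrd1, plus), all on GRCm38.p6.
Prdx1: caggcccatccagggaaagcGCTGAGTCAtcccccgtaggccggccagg
Txndc5: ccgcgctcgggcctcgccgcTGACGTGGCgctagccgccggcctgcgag
Gclm: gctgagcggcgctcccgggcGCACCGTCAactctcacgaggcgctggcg
Txnrd1: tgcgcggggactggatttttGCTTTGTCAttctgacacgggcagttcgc
The first base of the core lies 133 bases before the start in Prdx1, 138 in Txndc5, 134 in Gclm and 92 in Txnrd1. In Prdx1, Gclm and Txnrd1 the core reads on the opposite strand of the gene.

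Genes next to these families in the same pathways were read from lists of related genes. The counts of each list stand beside 8.45% lower and 20.1% higher over all genes tested. Glutaredoxins and methionine sulfoxide reductases use glutathione or thioredoxin to repair other proteins. Of 13 glutaredoxins, sulfiredoxin, methionine sulfoxide reductases, sestrins and Park7, 8 were lower, 0 were higher and 5 did not pass, with a median of -0.88 against 0.31 for all genes. Glrx2, a mitochondrial glutaredoxin, had 1.39, 1.45 and 1.34 in adult and 2.49, 2.47 and 2.36 in young (-1.05 ± 0.16 SE, limma adjusted p = 0.020). The spread within each group was far smaller than the gap. Park7 (DJ-1), a sensor of oxidative stress, differed by -1.12 ± 0.22 SE and Msra, which repairs oxidised methionine, by -1.07 ± 0.21 SE, and Glrx3 by -0.88 ± 0.18 SE, all past the threshold. Srxn1, which restores over-oxidised peroxiredoxins and is an Nrf2 target, did not pass (0.38 ± 0.22 SE), and is named after its value was seen.

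NADPH feeds both the thioredoxin and the glutathione systems. Of 8 genes that supply it 4 were lower, 0 were higher and 4 did not pass, with a median of -0.71. Idh1, the cytosolic isocitrate dehydrogenase, had -4.39, -3.58 and -3.93 in adult and -1.95, -1.88 and -2.32 in young (-1.92 ± 0.27 SE, limma adjusted p = 0.018), and the mitochondrial Idh2 differed by -1.06 ± 0.19 SE (limma adjusted p = 0.024). Pgd of the pentose phosphate pathway differed by -1.21 ± 0.26 SE and the mitochondrial transhydrogenase Nnt by -0.72 ± 0.20 SE, both past the threshold. G6pdx, the first enzyme of that pathway and named after its value was seen, differed by 0.09 ± 0.45 SE.

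Of 15 Nrf2 partners and further targets 2 were lower (Rbx1, a subunit of the ligase that marks Nrf2 for degradation, by -1.08 ± 0.20 SE, and the carbonyl reductase Cbr1 by -0.79 ± 0.20 SE) and 13 did not pass, with a median of -0.24. Of 6 genes for making selenoproteins 1 was lower, Secisbp2, which lets ribosomes read the selenocysteine codon (-0.82 ± 0.18 SE, median -0.51). Of 14 measured genes of glutathione turnover 1 was higher, Ggt5, which cleaves extracellular glutathione (2.09 ± 0.43 SE, median -0.07). Of 9 measured NADPH oxidase genes, which make superoxide or peroxide, 0 passed by limma, with 0.66 as their median. Nox3 of that list and Chac2 and Slc7a11 of glutathione turnover were too dim to be tested.

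Metallothioneins are small metal-binding proteins that also scavenge oxidants. Mt1 had 6.25, 5.45 and 4.71 in adult and 4.27, 3.75 and 3.79 in young, higher without overlap (1.535 ± 0.42 SE, limma adjusted p = 0.043). Of the 3 genes Mt1 passed and Mt2 (1.05 ± 0.38 SE) and Mt3 (0.52 ± 0.20 SE) did not.

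**Figure D5:**
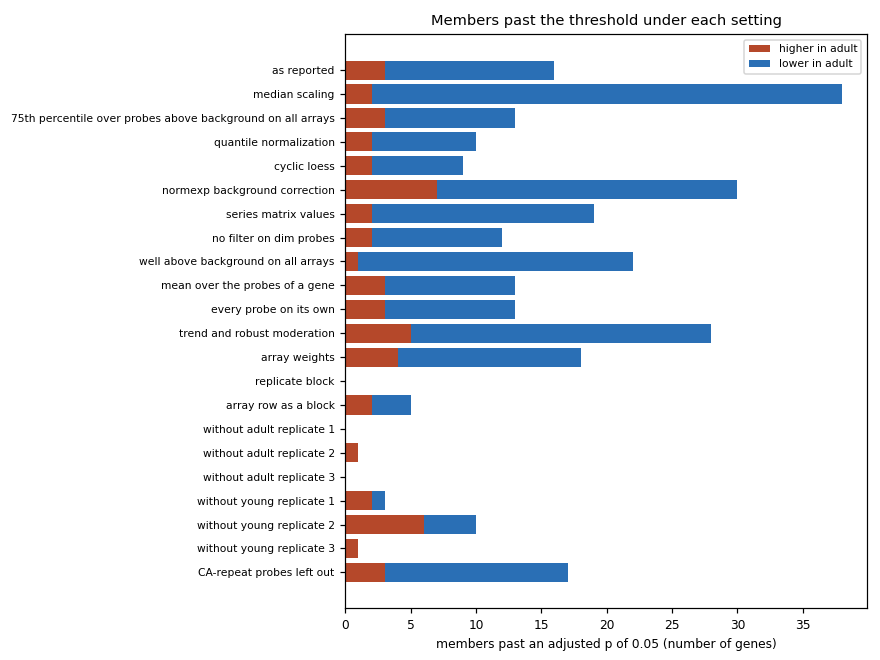
Number of redox genes past an adjusted p of 0.05 (x axis) under each processing setting (y axis), split into higher and lower in adult. The count runs from 0 with replicate blocks or without adult replicate 1 or 3 to 38 with array medians, and 16 as reported.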

How the data were processed

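Gene expression was measured in 3 adult and 3 young samples of sorted satellite cells, 1 single-colour array each. Spots were read with Agilent Feature Extraction 10.7.3.1, and the deposited intensity values are background-subtracted and detrended within an array, per the file headers. Arrays were not scaled to each other, and signals not above background hold surrogate values, per the file headers. The deposited series matrix held log2 values by the authors, and the steps behind them are not given in the sources used here. They differed by at most 0.000106 from a normexp correction (offset 50) with quantile normalization, which settles their scale and direction.

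Repeated spots were averaged after leaving out 3671 control spots and outlier spots, and none was saturated. Values are log2 of the processed intensity minus the 75th percentile of the array. Probes had to be well above background on 3 or more arrays, and the probe with the highest mean stood for its gene. Probes were named through accessions (26300), current symbols (2044), older symbols (355) or the name in the files (26982). Positions of probes refer to mm9, per the file headers.

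Adult and young were compared by limma 3.58.1 (lmFit and eBayes, R 4.3.3), two-sided, with Benjamini-Hochberg adjustment over all genes. On simulated arrays with known changes, the fit recovered their sign in most cases and their median size. The simulation drew independent noise for each gene. It held no shift shared by a whole array, a slide row or dim signals, so it does not cover such shifts. Members, lists and groupings were chosen with earlier results of these data known. Every member of a family of up to 8 measured genes is named. In larger families the called genes and the 4 with the smallest p are named, as are genes whose probes differ in sign with 1 past the threshold, and up to 4 called genes of each related list. Alternatives covered scaling, background correction, the filter, the choice of probe, the variance model (other scalings and values kept the same probe of each gene), blocks by replicate number and array row, and each array left out. With 6 arrays, their number limits the precision.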

Additional observations from a re-analysis of the deposited data

How the results depend on the processing

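Scaled on array medians, 3451 genes were higher and 8813 lower, 38 redox genes were called (36 lower), and all family medians fell further: -1.06 over all redox genes, -1.25 for peroxiredoxins, -1.245 for glutathione peroxidases, -0.77 for superoxide dismutases with catalase, -1.18 for the thioredoxin group, -1.04 for glutathione synthesis, -0.77 for transferases and -1.075 for the Nrf2 axis. All genes shift nearly alike there, by a median of -0.54, and signs turned for Gpx2 (-0.25), Gpx3 (-0.53), Gpx6 (-0.18) and Sod3 (-0.50). Taking the 75th percentile over only those probes well above background on all 6 arrays gave 1785 lower genes, medians of -0.38 over the redox genes and -0.50 for the thioredoxin group, and 0.10 for Gss. Quantile normalization gave 5657 calls (2876 higher), 10 redox calls (8 lower), and turned Gpx2 (-0.032), Gpx3 (-0.055), Gpx6 (-1.06), Sod3 (-0.069) and Nqo1 (-0.35). Cyclic loess gave 5278 calls (3132 higher), 9 redox calls (7 lower), medians of -0.43 over the redox genes and -0.44 for the thioredoxin group, and turned Gpx6 (-0.85) and Nqo1 (-0.19). With normexp there were 4131 lower genes, 30 redox calls (7 higher, 23 lower) and medians of -0.41 and -0.50. The series matrix values gave 4120 lower genes, medians of -0.40 over the redox genes and -0.23 for the Nrf2 axis, and turned Gpx2 (-0.026), Gpx6 (-0.22), Nqo1 (-0.11) and Txndc8 (-0.045). The mean over the probes of a gene gave medians of -0.44 over the redox genes and -0.44 for the thioredoxin group, and -0.34 for Cat. With CA-repeat probes left out, chosen after seeing the data, Cat stood at -1.23 and its family at -0.53. With probes well above background on all arrays only, 21 redox genes were lower and 1 higher, beside 3585 lower and 5353 higher genes in all. With trend and robust moderation 28 redox genes were called (5 higher, 23 lower), beside 4433 lower genes in all. Array weights turned Gss (0.060). The row of the array as a block gave 5965 calls (1201 lower), 5 redox calls (3 lower) and Sod3 at -0.0022.

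No pairing of samples with the same replicate number was seen: deviations from the group means correlated at -0.0024, -0.094 and -0.14 for numbers 1, 2 and 3. With so few samples in each group, these correlations cannot exclude a pairing. Under the replicate block, limma passed 0 genes (0 higher, 0 lower), of which 0 redox genes (0 higher, 0 lower), while 12728 genes and 27 redox genes had an unadjusted p under 0.05. With 1 array fewer, between 295 and 7691 genes passed, with 274 to 6429 of them higher and 21 to 1262 lower. Among redox genes 0 to 10 passed, with 0 to 6 higher and 0 to 4 lower. The median of the redox genes then ran from -0.53 to -0.38 and that of superoxide dismutases with catalase from -0.40 to 0.050. Gpx3 ran from -0.062 to 0.10, Gpx6 from -0.086 to 0.77, Sod3 from -0.22 to 0.45, Gss from -0.17 to 0.20 and Nqo1 from -0.12 to 1.36. Each of these fits held fewer samples. Apart from that, the cause of the changes was not tested. Under other scalings, background corrections and values, each run on the same probes, Txndc8 alone of the 16 called genes turned its sign (series matrix values). Leaving out an array cannot turn the sign of these 16, whose groups do not overlap. Since all arrays lay on 1 slide, a slide block was not run. For dim genes, among them the 3 that rose, signal over background sets the limit.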
